A study of Felis catus with 6 samples.

Results

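ATP-binding cassette (ABC) transporters in the oral mucosa of cats with feline chronic gingivostomatitis (FCGS) were described by 9 genes, ABCA3, ABCA6, ABCA8, ABCA9, ABCB6, ABCB9, ABCC5, ABCC9 and ABCD4. They were chosen by their FPKM in lesion and healthy mucosa, as members of subfamilies A to D that the study lists as at least 2-fold different. By the mean log2 difference computed here, rather than by the list of the study, 29.2% of tested identifiers were at least 2-fold different. These 9 are among the 1929 identifiers with a name, of 21529 identifiers in all. The difference between lesion and healthy mucosa chose the genes, so their values in that comparison are a description with no test.

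The 6 libraries came from 3 cats, called Bart, Jerome and Sadie in the labels. Each cat gave 1 biopsy of an inflamed FCGS lesion (n = 3) and 1 of adjacent healthy mucosa (n = 3). The healthy mucosa thus came from diseased cats, which the study describes as toothless and under buprenorphine for pain, and the labels give no age. The labels call the tissue gingival, whereas the study's design places the biopsies beside the palatoglossal folds.

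ABC transporters are membrane proteins that use the energy of ATP to carry lipids, peptides, metals in organic complexes, nucleotides or drugs across a membrane. Full transporters hold a pair of membrane domains and a pair of ATP-binding domains in 1 chain, whereas shorter ones such as ABCB6, ABCB9 and ABCD4 hold 1 of each and work as dimers. Subfamily A moves mainly lipids, subfamily B holds peptide and porphyrin carriers, subfamily C organic anion exporters and a channel regulator, and subfamily D carriers of peroxisomes and lysosomes. In epithelia, several members also export drugs and their conjugates.

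Values are FPKM, which scale the reads of a gene by its transcript length and by the library, so levels can be set side by side between genes. Across the 13327 tested identifiers r was 0.948 between the lesions of Jerome and Sadie, whereas the lesion of Bart reached r = 0.821 and 0.835 with them, so the mean difference of each gene is also given without this lesion or without both libraries of Bart. Among healthy libraries r was 0.868 to 0.937. Genes are not independent replicates in these correlations. Skeletal muscle RNA was present in the lesions of Jerome and Sadie and in healthy mucosa of Sadie, with CKM, the creatine kinase of muscle, at 716 to 1234 FPKM, against 0.528 to 1.33 FPKM in the other libraries. Of 4 named markers of oral epithelium, KRT4, a keratin of mature oral epithelial cells, was listed at 0 in healthy mucosa of Jerome and Sadie. In healthy mucosa of Bart KRT4 was at 2089 FPKM, and in the lesions of Bart, Jerome and Sadie at 8.99, 2534 and 569 FPKM. The sum of the 4 markers was 60.6, 2650 and 612 FPKM in these lesions and 2607, 234 and 250 FPKM in healthy mucosa, so its direction differed between cats. COL17A1, a collagen of basal keratinocytes, was present in every healthy library, at 222 to 504 FPKM.

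Of the 9 ABC genes, 6 had a higher mean in lesions and 3 a lower one. The higher ones were ABCA3, ABCA6, ABCA8, ABCA9, ABCC5 and ABCC9, and the lower ones were ABCB6, ABCB9 and ABCD4. In bulk tissue, fewer cells of a type and less RNA per cell cannot be told apart. In 6 of the 9 genes the lesion and healthy values did not overlap, beside 38.6% of all tested identifiers. Of these, 4 lay higher in lesions (16.7% of identifiers) and 2 lower (21.9%). The direction was the same in every cat for 8 of the 9 (63.2% of identifiers), ABCB9 being the exception. With values under 1 FPKM set to 1, the floor used for all log2 values here unless stated otherwise, ABCA6 was at least 2-fold different in every cat (15.6% of identifiers). With a floor of 0.1 FPKM ABCA6, ABCA9 and ABCC9 were, 3 of the 9 (17.4% of identifiers). In the limma fit across all identifiers, 2 of the 9 were called at an adjusted p under 0.05, ABCA6 and ABCB6, beside 11.9% of identifiers. With the cat as a block 4 of the 9 were called, ABCA3 and ABCD4 in addition, beside 23.2%. Since the same comparison chose the genes, nothing is read from these counts. The median log2 difference was 1.22 over the 9 genes and -0.07 over all tested identifiers. ABCB9 lay nearest to the 2-fold limit, at -1.0035 on the log2 scale, and the identifier just outside the limit, unnamed, was at 0.9995.

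**Figure D1:**
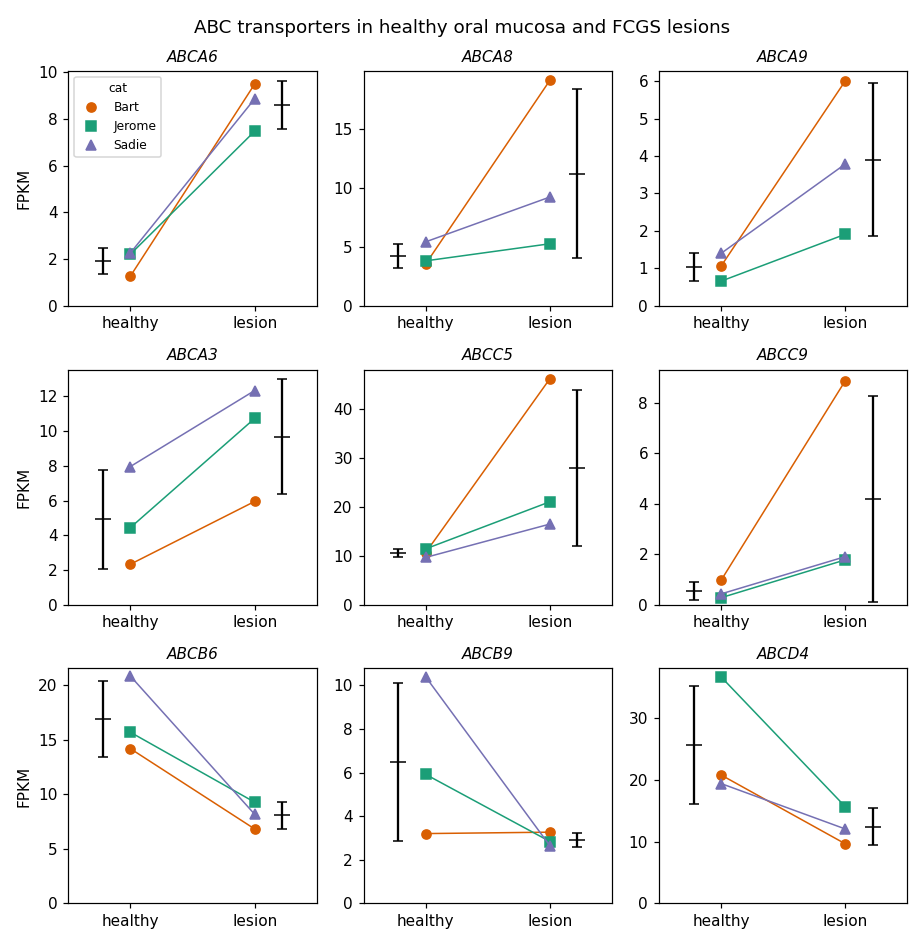
FPKM (vertical axes, each starting at 0) of the 9 ABC genes in healthy mucosa and FCGS lesions, with 1 colored point per cat joined by a line, and the mean with its SD over 3 cats in black. ABCA6, ABCA8, ABCA9, ABCC5 and ABCC9 have their highest value in the lesion of Bart, with the least spread among lesions in ABCA6 (1.27 times), and ABCB9 is level in Bart.

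ABCA6, ABCA8 and ABCA9 belong to a group of related full transporters of subfamily A with roles in cellular lipid handling that are less well understood than those of other members. In the RefSeq gene order of the cat they are direct neighbours, ABCA8 beside ABCA9 beside ABCA6, followed by ABCA10 and ABCA5, which carry no name here. The build of the deposited files is not given, so no coordinates are shown. How reads shared by such paralogs were assigned is not given either.

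ABCA6 (ENSFCAG00000015679) measured 9.50, 7.48 and 8.87 FPKM in the lesions of Bart, Jerome and Sadie, and 1.27, 2.21 and 2.26 FPKM in their healthy mucosa. The lowest lesion thus lay above the highest healthy value, and the lesions differed among themselves by only 1.27 times. Lesions averaged 8.62 ± 1.03 FPKM, against 1.91 ± 0.558 FPKM for healthy mucosa (SD, n = 3 each). On the log2 scale, Bart differed by 2.91, Jerome by 1.76 and Sadie by 1.97. The mean log2 difference, 2.21, was the largest of the 9 genes with the floor of 1 FPKM, but with a floor of 0.1 FPKM that of ABCC9 was larger (2.70). It was 1.87 without Bart and 2.14 without the lesion of Bart.

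ABCA8 (ENSFCAG00000006139), a carrier linked to cholesterol efflux, measured 19.1, 5.25 and 9.21 FPKM in the lesions of Bart, Jerome and Sadie, against 3.54, 3.80 and 5.41 FPKM in healthy mucosa. Every lesion exceeded the healthy mucosa of its own cat, but the lesion of Jerome lay below the healthy mucosa of Sadie, so the tissues overlapped. The fold within a cat was 5.40 in Bart and only 1.38 in Jerome and 1.70 in Sadie. The mean log2 difference of 1.22 (SD 1.06 over 3 cats) dropped to 0.62, under the 2-fold limit, without Bart.

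ABCA9 (ENSFCAG00000015675) had the lowest mean FPKM of this group in both tissues. It measured 6.01, 1.91 and 3.79 FPKM in lesions and 1.06, 0.656 and 1.40 FPKM in healthy mucosa of Bart, Jerome and Sadie. The tissues did not overlap, and the order of the lesions was that of ABCA8, with Bart highest and Jerome lowest. Unfloored, Bart differed 5.68-fold, Jerome 2.91-fold and Sadie 2.71-fold. The healthy value of Jerome lay under the floor of 1 FPKM, which reduced the log2 difference in that cat to 0.93. Over the cats it averaged 1.63 ± 0.80 (SD, n = 3), and 1.19 without Bart.

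ABCA3 (ENSFCAG00000007691), which loads phospholipid into the lamellar bodies of the lung, followed another order. It measured 5.95, 10.7 and 12.3 FPKM in the lesions of Bart, Jerome and Sadie and 2.33, 4.44 and 7.96 FPKM in healthy mucosa. Bart was lowest and Sadie highest in both tissues, and the lesion of Bart lay below the healthy mucosa of Sadie. The fold within a cat was 2.56, 2.42 and 1.55 in the same order of cats. The log2 difference of 1.09 ± 0.40 (SD, n = 3 cats) became 0.64 without healthy mucosa of Bart, 1.52 without healthy mucosa of Sadie and 1.40 without the lesion of Bart.

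ABCC5, or MRP5, exports cyclic nucleotides and other organic anions. ABCC5 (ENSFCAG00000007784) was the most abundant of the 9 genes in lesions, with 46.3, 21.1 and 16.5 FPKM in Bart, Jerome and Sadie. Healthy mucosa measured 10.7, 11.4 and 9.66 FPKM, the smallest spread among healthy libraries of any of the 9 genes (1.18 times). All lesions lay above all healthy values. Lesions averaged 28.0 ± 16.1 FPKM, against 10.6 ± 0.881 FPKM for healthy mucosa (SD, n = 3 each). Bart differed 4.35-fold, Jerome 1.85-fold and Sadie 1.71-fold, and the mean log2 difference of 1.26 became 0.82 without the lesion of Bart.

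ABCC9 is the sulfonylurea receptor SUR2, a regulatory subunit of ATP-sensitive potassium channels known from vascular smooth muscle, pericytes and striated muscle. ABCC9 (ENSFCAG00000012523) measured 8.89 FPKM in the lesion of Bart, against 1.78 FPKM in that of Jerome and 1.90 FPKM in that of Sadie. Healthy mucosa held 0.960, 0.272 and 0.423 FPKM in the same order. All 3 healthy values lay under the floor of 1 FPKM, so the gene passed the filter through the lesions alone. Unfloored, the lesion was 9.26-fold higher than healthy mucosa in Bart, 6.53-fold in Jerome and 4.50-fold in Sadie. On the floored log2 scale the differences were 3.15, 0.83 and 0.93. The mean of 1.64 ± 1.31 (SD, n = 3 cats) was 0.88 without the lesion of Bart, and 2.93 when taken as the log2 ratio of unfloored mean FPKM. CKM was at 0.937 FPKM in the lesion of Bart, where ABCC9 was highest, and the part of muscle in ABCC9 was not tested. KCNJ8, which encodes a channel subunit and lies beside ABCC9 in the RefSeq order, carries no name here.

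The 3 genes lower in lesions all encode carriers that work as dimers. ABCB6 (ENSFCAG00000011240), a porphyrin carrier, measured 6.82, 9.28 and 8.17 FPKM in the lesions of Bart, Jerome and Sadie and 14.2, 15.7 and 20.8 FPKM in healthy mucosa. The tissues did not overlap, and the lesions lay within 1.36 times of each other. Healthy mucosa exceeded the lesion by 2.08-fold in Bart, 1.69-fold in Jerome and 2.55-fold in Sadie. The mean log2 difference was -1.06 (SD 0.30 over 3 cats), -0.89 without healthy mucosa of Sadie and -0.94 without the lesion of Bart.

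ABCD4 (ENSFCAG00000006206), which works in the export of cobalamin (vitamin B12) from lysosomes, was the most abundant of the 9 genes in healthy mucosa. It measured 20.8, 36.6 and 19.4 FPKM there and 9.62, 15.6 and 12.0 FPKM in the lesions of Bart, Jerome and Sadie. Jerome was highest in both tissues, and the tissues did not overlap. Healthy mucosa exceeded the lesion by 2.16-fold, 2.35-fold and 1.61-fold in the same order. The mean log2 difference of -1.01 (SD 0.28 over 3 cats) was -0.72 without healthy mucosa of Jerome and -0.84 without the lesion of Bart.

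ABCB9 (ENSFCAG00000006130), a peptide carrier of lysosomes related to the TAP peptide transporters, differed between cats in healthy mucosa rather than in lesions. Lesions of Bart, Jerome and Sadie measured 3.27, 2.84 and 2.64 FPKM, within 1.24 times of each other. Healthy mucosa held 3.20, 5.92 and 10.4 FPKM, a range of 3.24 times. In Bart lesion and healthy mucosa were level (1.02-fold), in Jerome healthy mucosa was 2.09-fold higher, and in Sadie 3.94-fold. The mean log2 difference of -1.0035 had an SD of 1.01 over the 3 cats, and was -1.52 without Bart and -0.52 without Sadie.

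Across the 6 higher genes, the cat Bart had the larger differences, with a median log2 difference of 2.47, against 0.91 in Jerome and 0.85 in Sadie. These medians use the floor of 1 FPKM, and without it they were 2.47, 1.41 and 1.11. All 6 were at least 2-fold higher in the lesion of Bart with or without the floor. In Jerome 2 of the 6 were with the floor (ABCA3 and ABCA6) and 4 without it (ABCA9 and ABCC9 in addition). In Sadie 2 were with the floor (ABCA6 and ABCA9) and 3 without it (ABCC9 in addition). The 3 lower genes had medians of -1.06, -1.06 and -1.35 in Bart, Jerome and Sadie. Without the lesion of Bart 4 of the 9 genes remained at least 2-fold different, ABCA3, ABCA6, ABCA9 and ABCB9. Without both libraries of Bart the number was also 4, with ABCB6 in place of ABCA3. The direction of the mean was kept by all 9 in both cases. Leaving out any other single library or cat left 6 to 8 of the 9 at least 2-fold different.

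**Figure D2:**
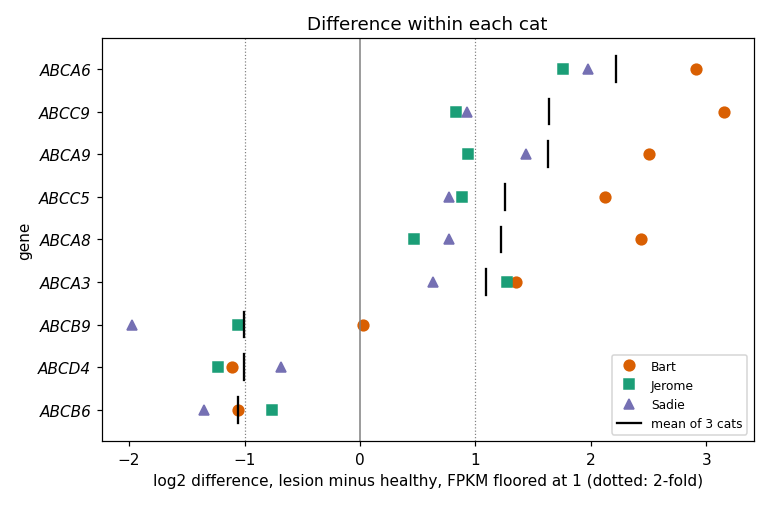
Log2 difference of lesion and healthy mucosa, with FPKM floored at 1 (horizontal axis), for the 9 ABC genes (vertical axis), with 1 colored point per cat the mean as a black bar and dotted lines at a 2-fold difference. Bart lies to the right of the other cats in all 6 higher genes, and near 0 in ABCB9. On this floored scale the gap is widest in ABCC9 (3.15, against 0.83 in Jerome and 0.93 in Sadie). The floor widens it, since it raised all healthy values of ABCC9, and the unfloored folds were 9.26, 6.53 and 4.50.

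The order of the levels differed between the tissues. In lesions ABCC5 stood first at 28.0 ± 16.1 FPKM (SD, n = 3), and its lowest lesion lay above the highest lesion value of ABCD4, at 12.4 ± 3.02 FPKM. From ABCD4 downward, each gene overlapped with the next in the order ABCA8, ABCA3, ABCA6, ABCB6, ABCC9, ABCA9 and ABCB9, the last at 2.91 ± 0.323 FPKM. In healthy mucosa ABCD4 led with 25.6 ± 9.58 FPKM and overlapped with ABCB6 at 16.9 ± 3.49 FPKM. ABCB6 lay above ABCC5 without overlap, and ABCA8 (4.25 ± 1.01 FPKM) above ABCA6 (1.91 ± 0.558 FPKM). The other neighbours overlapped, in the order ABCC5, ABCB9, ABCA3, ABCA8 and then ABCA6, ABCA9 and ABCC9, the last at 0.551 ± 0.362 FPKM. In mean FPKM over the 6 libraries, the 9 genes lay between the 43.7th percentile of all identifiers (ABCC9) and the 76.4th (ABCC5).

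The profiles over the 6 libraries were compared by the root mean square difference of log2 FPKM, each gene centred on its own mean. The floor of 1 FPKM makes low values equal, all 3 healthy values of ABCC9 and 1 of ABCA9. Distances of these genes in this paragraph are thus given with and without it. Of the 36 pairs of ABC genes, the neighbours ABCA8 and ABCA9 were closest with the floor, at 0.24 on the log2 scale, and at 0.40 without it. ABCA6, the third of these neighbours, was at 0.70 from ABCA8, and at 0.54 from ABCA9 (0.61 without the floor). ABCC5 was closer to ABCA8 (0.42) than ABCA6 was. ABCC9 was at 0.44 from ABCA8 and 0.40 from ABCC5 with the floor, but at 1.02 and 0.97 without it. ABCB6 was at 0.39 from both ABCD4 and ABCB9. ABCA3 had no close partner among the 9, its nearest being ABCA6 at 0.75. These values describe 6 libraries in 3 pairs and carry no test.

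**Figure D3:**
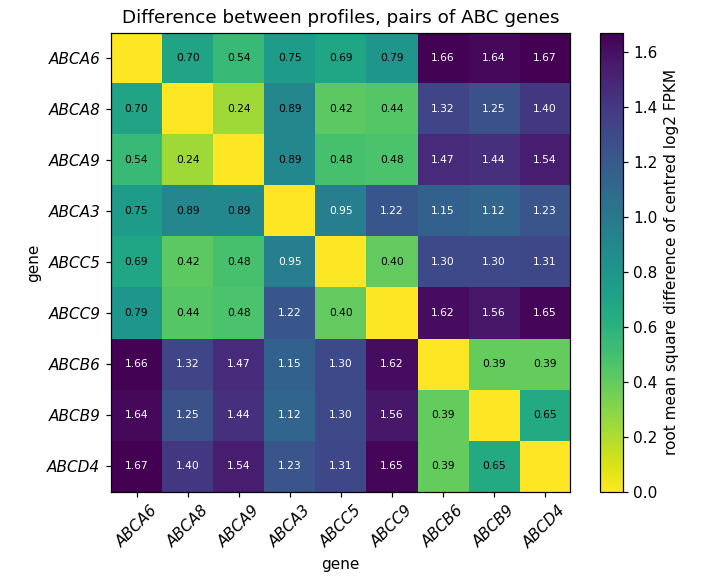
Root mean square difference of centred log2 FPKM over 6 libraries (color and number) for each pair of the 9 ABC genes on both axes, with values floored at 1 FPKM, where a small value means a like profile. ABCA8, ABCA9, ABCC5 and ABCC9 lie within 0.48 of each other on this floored scale, on which all healthy values of ABCC9 are equal, and ABCB6 within 0.39 of ABCB9 and ABCD4.

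Among the named genes, those with the closest profile to each ABC gene differed from it by 0.06 to 0.23. For ABCA8 they were PCDH12 (0.15), SORL1 (0.18) and TMEM61 (0.19), and PCDH12, a protocadherin of endothelium, was also among the 3 closest to ABCA9 (0.17), after PAX1 (0.14) and KIAA1755 (0.15). For ABCA6 they were CPT1C (0.13), ARHGAP30 (0.19) and APBB1IP (0.19). ABCC9 was closest to IL18R1 (0.15), a receptor of the cytokine interleukin-18, FAM13C (0.16) and BGN (0.16), the matrix proteoglycan biglycan. ABCC5 was closest to CCL14 (0.16), MAP3K12 (0.16) and STX2 (0.17). ABCA3 had CDNF (0.19), CD244 (0.20), a receptor of lymphocytes, and UBASH3A (0.21). ABCB6 was followed most closely of all, by JMJD8 (0.06), GID8 (0.07) and POLE4 (0.08). ABCB9 had SRCIN1 (0.14), TEF (0.16) and UNC5A (0.18), and ABCD4 had RNF149 (0.14), ANKRD22 (0.23) and CCDC97 (0.23). Several of these matches rest on the floor of 1 FPKM. All 3 lesions of SRCIN1 and UNC5A were under it, as were all 3 healthy values of IL18R1 and 2 of the 3 of PAX1, KIAA1755 and FAM13C. So were all 3 healthy values of ABCC9 itself and 1 of ABCA9. All matches of ABCC9, that with BGN included, thus rest on the floor, and their distances without it are not given. A gene carries a name only if it was at least 2-fold different and its row was at hand, so closer profiles may exist among the unnamed identifiers.

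Sums of markers of connective tissue and vessels shared their highest library with ABCA6, ABCA8, ABCA9, ABCC5 and ABCC9. The 6 named mural cell markers of 12 listed (PDGFRB, RGS5, MCAM, ACTA2, MYH11 and TAGLN) summed to 2632 FPKM in the lesion of Bart, 582 FPKM in that of Jerome and 700 FPKM in that of Sadie. In healthy mucosa the sum was 135 to 331 FPKM. The sum of 4 named fibroblast markers of 17 (LUM, COL6A1, COL6A2 and COL6A3) was 2773 FPKM in the lesion of Bart, 632 to 735 FPKM in the other lesions and 292 to 634 FPKM in healthy mucosa. The sum of 12 named endothelial markers of 16, led by VWF, PLVAP and ENG, was 2232 FPKM in the lesion of Bart, 933 to 979 FPKM in the other lesions and 244 to 503 FPKM in healthy mucosa. The lesion of Bart was thus the highest library for all 3 sums, as for ABCA6, ABCA8, ABCA9, ABCC5 and ABCC9. Among healthy libraries Bart was also the highest for all 3 sums, but of these ABC genes only for ABCC9. None of these markers was listed at 0 in any library.

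Relative to marker sums, with values not floored, the direction of the difference depended in some cats on the cell type for ABCA6, ABCA8 and ABCA9. For ABCC5 and ABCC9 it did not. Per 1000 FPKM of the mural sum, ABCC9 was at 3.38, 3.05 and 2.72 FPKM in the lesions of Bart, Jerome and Sadie and at 2.90, 2.01 and 1.60 FPKM in healthy mucosa. The tissues overlapped on this scale, and the lesion was 1.17-fold, 1.51-fold and 1.70-fold above healthy mucosa. Per fibroblast sum ABCC9 was 2.12-fold, 3.28-fold and 1.79-fold higher in the lesion and the tissues did not overlap, and per endothelial sum it was 2.09-fold, 1.87-fold and 1.18-fold higher with overlap. These ABCC9 ratios rest on healthy values under 1 FPKM. If those are set to 1 FPKM, the lesions of Jerome and Sadie (1.78 and 1.90 FPKM) rise less than every sum. The smallest rise, of the fibroblast sum, was 1.99-fold and 2.51-fold there, so the direction in these cats depends on the floor. ABCA8 per 1000 FPKM of the fibroblast sum was at 6.89, 8.31 and 12.5 FPKM in lesions and at 5.58, 12.0 and 18.5 FPKM in healthy mucosa, higher in the lesion of Bart and lower in those of Jerome and Sadie. ABCC5 per 1000 FPKM of the fibroblast sum lay at 0.994, 0.926 and 0.679 times healthy mucosa in the lesions of Bart, Jerome and Sadie. Per mural sum it lay at 0.548, 0.428 and 0.644 times, and per endothelial sum at 0.979, 0.529 and 0.447 times. ABCA8 lay at 0.680, 0.320 and 0.642 times per mural sum, and at 1.22, 0.396 and 0.446 times per endothelial sum. ABCA9 lay at 1.30, 1.46 and 1.08 times per fibroblast sum and at 0.716, 0.675 and 1.02 times per mural sum. Per endothelial sum ABCA9 lay at 1.28, 0.835 and 0.709 times. ABCA6 in the lesion lay at 1.71, 1.70 and 1.56 times healthy mucosa per fibroblast sum, at 0.944, 0.786 and 1.48 times per mural sum, and at 1.69, 0.972 and 1.03 times per endothelial sum, with overlap of the tissues each time. Only markers at least 2-fold different in the study could be summed, and their part in the results was not tested.

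Sums of leukocyte markers had another order, which not every marker shared. The sum of 10 named macrophage markers of 17, led by C1QB, C1QC and CD14, was 1082 FPKM in the lesion of Bart and 1699 to 1745 FPKM in the other lesions, against 239 to 564 FPKM in healthy mucosa. The sum of 10 named T cell markers of 13, led by CD3G, CD3E and CD3D, was 251 FPKM in the lesion of Bart, 571 FPKM in that of Jerome and 707 FPKM in that of Sadie, against 69.3 to 194 FPKM in healthy mucosa. As in ABCA3, Bart was the lowest cat in each tissue for both sums, and their part in that gene was not tested. Single markers went the other way. CD14 (219 FPKM, against 205 in Jerome and 108 in Sadie), ITGAM, MSR1 and the T cell marker CD28 were highest in the lesion of Bart. The other macrophage and T cell markers were highest in another lesion. Among B and plasma cell markers, 10 of 15 were named and summed to 530, 1828 and 2969 FPKM in the lesions of Bart, Jerome and Sadie and to 713 to 907 FPKM in healthy mucosa. The most abundant of them, SDC1, which epithelial cells also express, was lower in lesions, at 83.5 to 347 FPKM against 611 to 680 FPKM. Without SDC1 the other 9, led by CD79A and TNFRSF17, summed to 446, 1481 and 2698 FPKM in lesions and to 33.4, 296 and 79.0 FPKM in healthy mucosa, without overlap. The sum of 3 named adipocyte markers of 10 (GPD1, LPL and CIDEA) was 38.1, 27.0 and 29.6 FPKM in lesions and 6.14 to 12.6 FPKM in healthy mucosa. The sum of 18 named muscle markers of 23, led by CKM, MYLPF and TNNC2, in the lesions of Jerome and Sadie was 5639 to 6348 FPKM, with 2710 FPKM in healthy mucosa of Sadie and 9.77 to 32.1 FPKM elsewhere. ABCA3 was the only one of the 9 ABC genes with its 3 highest values in those 3 libraries, and the part of muscle in it was not tested.

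**Figure D4:**
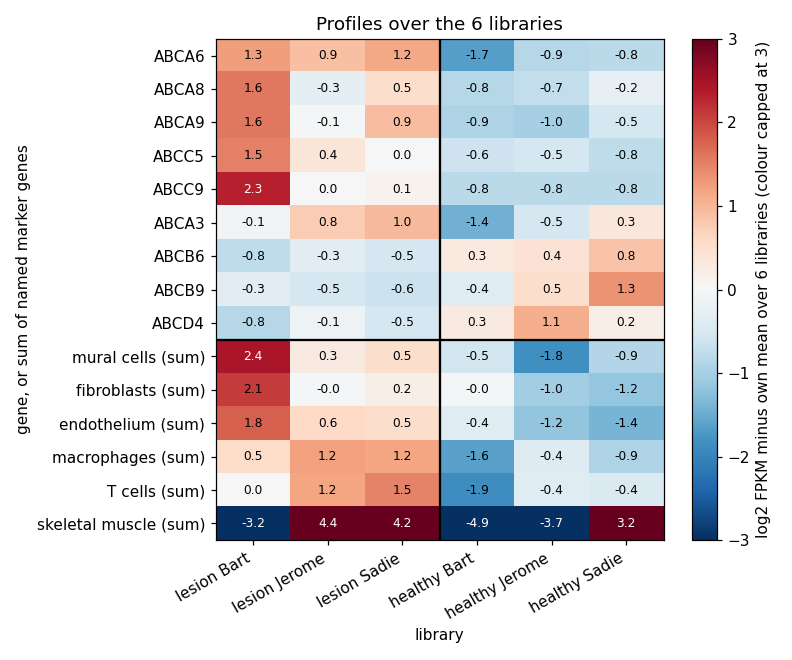
Log2 FPKM minus the mean over the 6 libraries (color, capped at 3, and number), with values floored at 1 FPKM, for the 9 ABC genes (upper rows) and for sums of named marker genes (lower rows) in each library (columns). ABCA6, ABCA8, ABCA9, ABCC5 and ABCC9 and the sums for mural cells, fibroblasts and endothelium have their highest value in the lesion of Bart. The sums for macrophages and T cells have theirs in another lesion.

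Of 35 other ABC transporters looked for, 2 carried a name. The others may differ by less than 2-fold, may not be in the list, or may be among its strongest falls, whose rows were not at hand. The named ones were both of subfamily G and both higher in lesions. ABCG1, which moves cholesterol out of macrophages, measured 17.8, 50.9 and 70.7 FPKM in the lesions of Bart, Jerome and Sadie and 5.84, 11.2 and 3.86 FPKM in healthy mucosa. The tissues did not overlap, and the lesion of Bart was the lowest, in contrast to ABCA6, ABCA8, ABCA9, ABCC5 and ABCC9. ABCG2, an exporter of drugs and urate, measured 11.2, 6.03 and 7.29 FPKM in lesions and 3.43, 3.20 and 4.35 FPKM in healthy mucosa, again without overlap and with Bart highest. Their log2 differences were 2.66 and 1.12, and limma called ABCG1 but not ABCG2.

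The pathways in which the ABC genes work were followed in lists, in which a name again means at least 2-fold different by the study, and the study chose these genes on the same samples, so the counts give no independent support to a direction. In limma 5.31% of all tested identifiers rose and 6.61% fell, and with the cat as a block 12.2% and 11.1%. The libraries are paired by cat, so the counts of both fits are given, and a gene described as not called is so in the unblocked fit. Of 16 genes of sterol efflux and its regulation, 7 had a name. Of these 1 rose and 2 fell, or 3 and 3 when blocked on the cat. In mean, 3 of the 7 were higher in lesions and 4 lower. As every named gene was at least 2-fold different, the median log2 difference of -1.05 follows from this split and shows no common direction. APOE, the lipoprotein that accepts cholesterol, rose to 863 ± 207 FPKM, from 326 ± 82.9 FPKM in healthy libraries (SD, n = 3 each). SREBF1, a transcription factor of lipid synthesis, fell to 33.3 ± 8.69 FPKM in lesions from 103 ± 33.2 FPKM, and NPC1, the lysosomal cholesterol exporter, to 13.1 ± 2.72 FPKM from 26.7 ± 0.505 FPKM (n = 3 each, SD). LPCAT3, which remodels phospholipids, was called as lower only with the block, with healthy libraries at 62.1 ± 17.9 FPKM and lesions at 30.1 ± 9.79 FPKM (SD, n = 3 each).

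Of 37 genes of cyclic nucleotide synthesis and breakdown, which set the supply of substrates of ABCC5, 11 had a name, 4 rose and none fell (6 and none with the block). The 4 were the adenylate cyclase ADCY5 and the phosphodiesterases PDE1B, PDE4A and PDE4C. PDE1B measured 24.3, 8.58 and 9.45 FPKM in the lesions of Bart, Jerome and Sadie, against 3.27, 2.34 and 2.96 FPKM in healthy mucosa. ADCY4 and GUCY1B3, a subunit of soluble guanylate cyclase, were not called, ADCY4 being called with the block, with lesions at 50.02 ± 31.6 and 10.4 ± 9.49 FPKM and healthy libraries at 15.8 ± 7.62 and 3.03 ± 1.10 FPKM (SD, n = 3 each). The median log2 difference of the 11 genes was 1.46.

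Of 23 genes listed under heme synthesis and transport, set beside the porphyrin carrier ABCB6, 2 had a name, both were lower in lesions, and 1 fell in either fit. The latter was BLVRB, a biliverdin reductase, which acts in heme breakdown rather than in synthesis or transport. BLVRB fell to 32.7 ± 15.4 FPKM in lesions from 103 ± 13.6 FPKM (n = 3 each, SD). FLVCR2 was at 17.9 ± 9.22 FPKM in healthy mucosa and 4.11 ± 1.73 FPKM in lesions (SD, n = 3 each) and was called in neither fit. Of 17 genes of peptide transport and antigen processing, set beside ABCB9, 3 had a name and all were higher in lesions, the opposite direction to ABCB9, and 1 rose (2 with the block). CD74, the invariant chain of class II antigen presentation, rose to 2137 ± 521 FPKM in lesions from 822 ± 230 FPKM (n = 3 each, SD). TAPBP, which links the TAP transporter to class I molecules, measured 181, 367 and 320 FPKM in the lesions of Bart, Jerome and Sadie and 124, 155 and 98.5 FPKM in healthy mucosa, and PSMB10, a subunit of the immunoproteasome, 3.43, 15.2 and 17.1 FPKM and 2.17, 7.74 and 4.15 FPKM. Neither was called, but TAPBP was with the block.

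Of 10 genes of lamellar bodies and surfactant lipid, listed for ABCA3, 1 had a name. That gene was NAPSA, an aspartic protease, at 214, 49.4 and 39.0 FPKM in the lesions of Bart, Jerome and Sadie and 9.63, 14.0 and 3.65 FPKM in healthy mucosa, highest in the lesion in which ABCA3 was lowest. It was called only with the block. None of 18 genes of cobalamin uptake and use, the pathway of ABCD4, and none of 3 subunits of the potassium channel of ABCC9 carried a name.

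In the unblocked fit, 6 of 10 named macrophage markers rose (CD163, CSF1R, MSR1, C1QB, ITGAM and VSIG4), as did 4 of 12 endothelial markers (PECAM1, PLVAP, ENG and ROBO4), 3 of 10 B and plasma cell markers (MS4A1, CD22 and DERL3), 1 of 10 T cell markers (CD28) and 1 of 6 mural markers (TAGLN). None of the 4 fibroblast, 18 muscle or 3 adipocyte markers was called, and 3 of 4 epithelial markers fell (COL17A1, TGM5 and LAMB4). The remaining epithelial marker, KRT4, was called in neither fit. It was lower in the lesion of Bart and higher in those of Jerome and Sadie. With the cat as a block 9 of the 10 macrophage, 11 of the 12 endothelial, 9 of the 10 B and plasma cell, all 10 T cell, all 6 mural, all 4 fibroblast and 1 of the 3 adipocyte markers rose, the same 3 epithelial markers fell, and none of the 18 muscle markers was called. TAGLN, an actin-binding protein of smooth muscle, was at 1084 FPKM in the lesion of Bart and 303 and 324 FPKM in those of Jerome and Sadie, the order of ABCC9. Over all lists 28 genes were called by limma, and 70 in the fit blocked on the cat. None was called by limma when the lesion of Sadie, healthy mucosa of Sadie, the cat Jerome or the cat Sadie was left out (40 to 59 at an unadjusted p under 0.05), 6 to 9 without the lesion of Jerome or the healthy mucosa of Bart or Jerome, and 48 without the cat Bart.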

How the data were processed

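RNA of 6 libraries was measured, 1 from a lesion and 1 from healthy oral mucosa of each of 3 cats. Per the labels, the libraries were strand-specific. They took 200 ng of total RNA each, used 15 PCR cycles, and were sequenced from 1 end over 50 bp, whereas the study's methods describe longer paired-end reads. The values do not show which applies. The authors deposited FPKM values, and the tools in the submitters' processing notes are Cuffnorm, Cufflinks, HISAT and bcl2fastq, with no version. The sources used here do not give the genome build, the annotation or the way reads shared by paralogs were assigned. Read totals are unknown, so depth is unknown and no count model was used.

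The files carry Ensembl identifiers without symbols, and 0 of these were found in the RefSeq gene table (F.catus_Fca126_mat1.0), which served for gene order only. Symbols were taken from the 1981 rows at hand of the study's supplementary list of genes at least 2-fold different. The values of each row, floored at 1 FPKM, matched exactly 1 of 21529 identifiers to 5 significant digits. In all, 1929 identifiers were named, after leaving out those with fewer than 3 values above the floor or with a symbol turned into a date. The list is ordered by size, and the rows not at hand are its strongest falls. No table of feline sequences was at hand, so none is shown. Of the ABC transporters of subfamilies A to D in that list, 1 is not reported here.

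Log2 of FPKM floored at 1 was compared. The 13327 identifiers that reached 1 FPKM in 3 or more libraries were fitted with limma 3.58.1 in R 4.3.3 (tissue as the only term, mean-variance trend, two-sided, Benjamini-Hochberg adjustment, threshold 0.05), which gives the background for counts. The step was tested on simulated data with independent noise in each library and no effect of the cat, so that test does not cover paired libraries. Other steps ran in Python 3.11.15 (numpy 2.4.6, pandas 2.3.3) with matplotlib 3.10.9 for plots. The labels give both libraries of a pair the same animal. Deviations from the tissue means correlated across genes at 0.49 (Bart), 0.20 (Jerome) and 0.41 (Sadie) within a cat, and at -0.44 to 0.27 across different cats. Blocking on the cat was an alternative fit. Other alternatives were other floors and pseudocounts, other filters, quantile normalization, median centring, and leaving out each library or cat.

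The ABC genes and all lists were chosen with earlier results of these data known, and the lists after the supplementary list had been read. Beside the ABC genes, the text names the 3 genes with the highest mean FPKM of each list and, for each ABC gene, the 3 named genes with the closest profile. Genes passing limma within a list were named in addition, outside this rule.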

Additional observations from a re-analysis of the deposited data

How the results depend on the processing

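With 0.1 FPKM as the floor, or 0.1 FPKM added, 3 ABC genes were at least 2-fold different in every cat (ABCA6, ABCA9 and ABCC9), and with 1 FPKM added 2 (ABCA6 and ABCC9), against 1 with the floor of 1 FPKM. The values without any floor, the blocked counts per list and the sum without SDC1 in the report were chosen after seeing the data. With 1 FPKM added 5 of the 9 reached 2-fold on average. Of the 9, limma called 1 after quantile normalization, after median centring or with at least 1 FPKM in at least 1 library (ABCA6 each time), and 0 without a filter (5 at an unadjusted p under 0.05). Over all identifiers limma called 1588, 241 without a filter and 3098 with the cat as a replicate block. Of the list genes it called 1 without a filter and 70 with the block, and of the ABC genes 4 with the block. Leaving out single libraries or cats, limma called 0 to 2136 identifiers, 0 to 2 ABC genes (2 to 7 at an unadjusted p under 0.05) and 0 to 48 list genes. It called none of the ABC genes without either library of Sadie, healthy mucosa of Jerome, the cat Jerome or the cat Sadie. The cause was not tested. Over all omissions of a single library or cat, 4 to 8 ABC genes stayed at least 2-fold different, and 6 to 8 were without overlap. When a cat was left out, 2 to 3 were at least 2-fold different in every remaining cat. With fewer libraries any gene meets these last 2 criteria more easily. The shares of all identifiers under the omissions are not given, so nothing is read from these counts. No ABC gene changed the sign of its mean under any alternative. The files hold no read counts, so the error of low values such as those of ABCC9 in healthy mucosa is unknown.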
